A study of Rattus norvegicus with 9 samples.

Results

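The nuclear genes for subunits of respiratory complexes II to V were described in rat primary hippocampal neurons given NPCT or PCT. Their members were chosen by symbol among the protein-coding genes outside the mitochondrial genome, from the names of succinate dehydrogenase, cytochrome bc1, cytochrome c oxidase and ATP synthase subunits. The rule used no expression value, but earlier results of these data were known when this gene set was chosen. This gave 50 of the 34092 genes in the table, with 4 in complex II, 10 in complex III, 20 in complex IV and 16 in complex V. The 50 genes carry 48 symbols, because Uqcrb and Cox6b1 are each the name of 2 loci.

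The cells came from the hippocampus of wild-type rat fetuses at embryonic day 17 and were grown without mitotic inhibitors. At DIV 7 (days in vitro) they received for 24 h vehicle (Control) or 1 nM of either human peptide, NPCT or PCT, with 3 libraries of poly-A RNA per group. NPCT, or aminoprocalcitonin, is the peptide cut from the N terminus of procalcitonin (PCT), so PCT contains the sequence of NPCT. The comparison of each peptide with Control asks which subunit transcripts differ after treatment, and the comparison of NPCT with PCT asks where the fragment and its parent peptide differ at the same dose and time.

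The respiratory complexes sit in the inner mitochondrial membrane. Complex II passes electrons from succinate to ubiquinone, complex III passes them on to cytochrome c, complex IV passes them to oxygen, and complex V (ATP synthase) uses the proton gradient to make ATP. Complex II is built from nuclear genes alone, whereas complexes III, IV and V also hold subunits encoded in mitochondrial DNA, and neurons depend heavily on this pathway for their ATP. Values are FPKM (fragments scaled by gene length and by a factor for each library) and can therefore be compared between genes. Differences are in log2(FPKM + 0.1), and a gene was called when limma, fitted over all 15958 genes with a mean of at least 0.5 FPKM, gave it an adjusted p (Benjamini-Hochberg) no higher than 0.05.

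The libraries held between 13573056 and 17211642 fragments on genes. The third PCT library stood apart from the other two of its group, with a chi-square per degree of freedom of 22.2 and 19.5 against them, where the remaining pairs within groups gave 4.20 to 11.02. It lay above both other PCT libraries in 31 of the 45 members tested and in 6179 of the 15958 genes tested. Some PCT results, though not all, are therefore also given without it. Summed FPKM of 10 neuronal markers was between 1201 and 1376 in all libraries. Against Control 0 of the 10 were called, but 7 were lower after NPCT, 6 of them with NPCT libraries all below Control (20.3% of all genes) and 6 at an unadjusted p under 0.05 by limma (14.9%), and 3 were higher, 2 with libraries all above Control and 1 at that p. The 8 astrocyte markers summed to 2438 to 2616 in Control, 2385 to 2658 in NPCT and 2101 to 2170 in PCT. The 7 microglial markers in the table summed to 19.8 to 27.4 in Control, 27.3 to 114 in NPCT and 8.39 to 10.9 in PCT. The 8 markers of the oligodendrocyte lineage summed to 409 to 426 in Control, 438 to 452 in NPCT and 353 to 367 in PCT, and these sums did not overlap between groups. Against Control, 0 of the astrocyte and microglial markers were called in NPCT, with 3 at an unadjusted p under 0.05 by limma in the astrocyte list (1 higher, 2 lower) and 1 higher in the microglial list (14.4% of all genes higher, 14.9% lower), while 7 of 8 and 3 of 7 fell in PCT (4.20% of all genes called). Of the oligodendrocyte lineage, Olig1 fell in PCT, from a mean of 272 to 191 FPKM. In contrast, 6 of the 8 had a higher mean than Control (median 0.15), 5 with libraries all above Control (13.1% of all genes). In NPCT 7 of the 8 had a higher mean than Control (median 0.15), with 0 called. Libraries were all above Control in 3 (20.0% of all genes), and 3 were higher at an unadjusted p under 0.05 by limma (14.4%). Between the peptides, 6 of 7 microglial markers (median 2.13), 5 of 8 astrocyte markers (median 0.46) and 1 of 8 of the oligodendrocyte lineage were called higher in NPCT, 1 of 5 fibroblast markers lower (median -0.60), and of the neuronal markers 1 higher and 3 lower (16.3% of all genes called). Against Control, all 5 fibroblast markers had a higher mean in PCT (median 0.40). Of these 1 was called (adjusted p = 0.0413 by limma), with 4.20% of all genes called. In NPCT 1 fibroblast marker was higher than Control and 4 lower (median -0.046), with 0 called. Fewer cells of a type and less RNA per cell cannot be told apart in bulk RNA. Whether these markers bear on the subunit transcripts was not tested.

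Of the 50 members, 45 passed the filter on low values, and the 5 that did not were Cox4i2, Cox7b2, Cox8b, Cox8c and Cox6c-ps1. The last 3 were listed at 0 in all 9 libraries. Cox7b2, the testis isoform of subunit 7B, had 2 fragments in a single PCT library, and Cox4i2, the second isoform of subunit 4, had 1 to 9 fragments per library. The other tissue isoforms of complex IV were also low. The muscle isoform Cox6a2 averaged 1.40 ± 0.81 FPKM in Control (SD, n = 3), the muscle isoform Cox7a1 0.495 ± 0.165 and the testis isoform Cox6b2 2.01 ± 0.93, against 320 ± 19 for Cox6a1, 125 ± 4.4 for Cox7a2 and 158 ± 5.3 for the chromosome 1 locus of Cox6b1. Per library, Cox6a2 stood at 2.20, 1.41 and 0.582 FPKM in Control, 2.71, 1.03 and 1.09 in NPCT and 0.851, 1.48 and 1.68 in PCT, and Cox6b2 at 1.53, 1.43 and 3.09, then 1.06, 3.41 and 2.34, then 2.87, 2.84 and 2.91. In each pair the common isoform was the higher in every library.

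Among the expressed members, the catalytic beta subunit of ATP synthase, Atp5f1b, had the highest level in Control, with 518, 519 and 519 FPKM. Atp5md, a small membrane subunit, followed with 478, 493 and 498 FPKM and was above Atp5f1b in all 3 PCT libraries (580, 571 and 660), and the catalytic-head subunit Atp5f1a with 402, 406 and 381 FPKM. The highest transcript of complex IV was Cox8a at 304, 353 and 363 FPKM, a range that overlapped those of Cox6a1 (299, 327 and 335) and of Cox4i1 (315, 313 and 329). Complexes II and III were lower. Sdhc, a membrane anchor, led complex II at 131, 130 and 125 FPKM, and the small subunit Uqcr11 led complex III at 106, 118 and 126 FPKM, overlapping the core subunit Uqcrc2 (109, 109 and 104) and the Rieske iron-sulphur protein Uqcrfs1 (107, 104 and 107) and just above cytochrome c1, Cyc1 (103, 105 and 105). Summed over the members, complex V gave 3185 ± 52 FPKM in Control, complex IV 2361 ± 81, complex III 839 ± 27 and complex II 351 ± 6.5 (SD, n = 3). The same sums were 3798 ± 302, 2951 ± 286, 1034 ± 81 and 369 ± 18 in NPCT, and 3769 ± 300, 2832 ± 213, 999 ± 57 and 379 ± 25 in PCT.

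Respiratory subunit genes are known for promoters with sites for NRF1 and for ETS factors such as GABP. Promoter windows of RefSeq (GRCr8, 250 bases before to 50 after the annotated start) were found for 37 of the 45 tested members. An NRF1 core, GCGCATGC on either strand, stood in 6 of these 37 windows (16.2%) and in 2.47% of all 33469 windows of that length. An ETS core, CCGGAAG on either strand, stood in 14 of the 37 (37.8%) and in 8.75% of all. Either core was in 17 of the 37. GGGCGG was in 37.8% of the members' windows and 33.1% of all, CCAAT in 37.8% and 37.5%, and TATAAA in 8.11% and 14.2%, each on either strand. The stretches below are the last 120 bases before the start, 5′ to 3′ on the gene's strand, shown for members on which the comparisons turn: Atp5me and Uqcr10 had the largest differences of NPCT from Control, Atp5po the lowest adjusted p of PCT against Control, Atp5mc2 the largest NPCT difference among the c subunit genes, and Uqcrc2 went the other way. Capitals mark NRF1 and ETS cores, and 2 NRF1 matches that overlap appear as a single run.
Atp5me: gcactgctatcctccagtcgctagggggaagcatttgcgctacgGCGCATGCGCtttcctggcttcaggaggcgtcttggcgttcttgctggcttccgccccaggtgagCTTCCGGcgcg
Uqcr10: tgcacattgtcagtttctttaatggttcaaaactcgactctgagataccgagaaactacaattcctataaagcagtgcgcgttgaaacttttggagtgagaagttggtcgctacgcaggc
Atp5po: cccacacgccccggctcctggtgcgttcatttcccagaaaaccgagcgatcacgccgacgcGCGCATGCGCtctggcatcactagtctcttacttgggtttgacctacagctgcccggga
Atp5mc2: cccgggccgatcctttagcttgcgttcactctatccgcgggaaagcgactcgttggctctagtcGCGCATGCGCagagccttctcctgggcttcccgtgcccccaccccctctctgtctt
Uqcrc2: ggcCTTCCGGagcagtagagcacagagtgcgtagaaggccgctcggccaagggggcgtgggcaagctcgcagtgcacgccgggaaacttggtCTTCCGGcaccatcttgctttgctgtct
On GRCr8 these stretches are chr14:1464740-1464859 (plus strand) for Atp5me, chr14:83791915-83792034 (minus) for Uqcr10, chr11:44657484-44657603 (minus) for Atp5po, chr7:135678219-135678338 (minus) for Atp5mc2 and chr1:184599120-184599239 (plus) for Uqcrc2. In these stretches Atp5me held both cores and Uqcr10 neither. A match is a run of letters and not a measured site.

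After NPCT, 37 of the 45 tested members had a higher fitted mean than Control and 8 a lower one, with a median log2 difference of 0.19 against 0.0062 over all genes tested. With the trend on gene length removed, 31 were higher and 14 lower (median 0.077). With the length slope of each library as a covariate, 36 were higher and 9 lower (median 0.11). The backgrounds below are over all genes tested, whose median length is 2136 bases against 601 for the members, and were not matched for length. No member was called, with 75 of 15958 genes called (0.470%), whereas limma-voom on the recovered fragments called 13 members and 9.49% of all genes. At an unadjusted p under 0.05 by limma, 20 members were higher (background 14.4%) and 1 was lower (background 14.9%). The 3 NPCT libraries lay above all 3 Control libraries in 29 members, where the background is 20.0%, and below them in 2, where it is 20.3%. The lowest adjusted p among members was 0.0509, just past the limit, and 16 members (15 higher, 1 lower) had an adjusted p under 0.1, a limit set after these values were seen and passed by 17.4% of all genes. Without the third PCT library, which enters the fit through the shared variance, 18 members passed at 0.05 (17 higher, 1 lower), with 19.2% of all genes called.

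**Figure D1:**
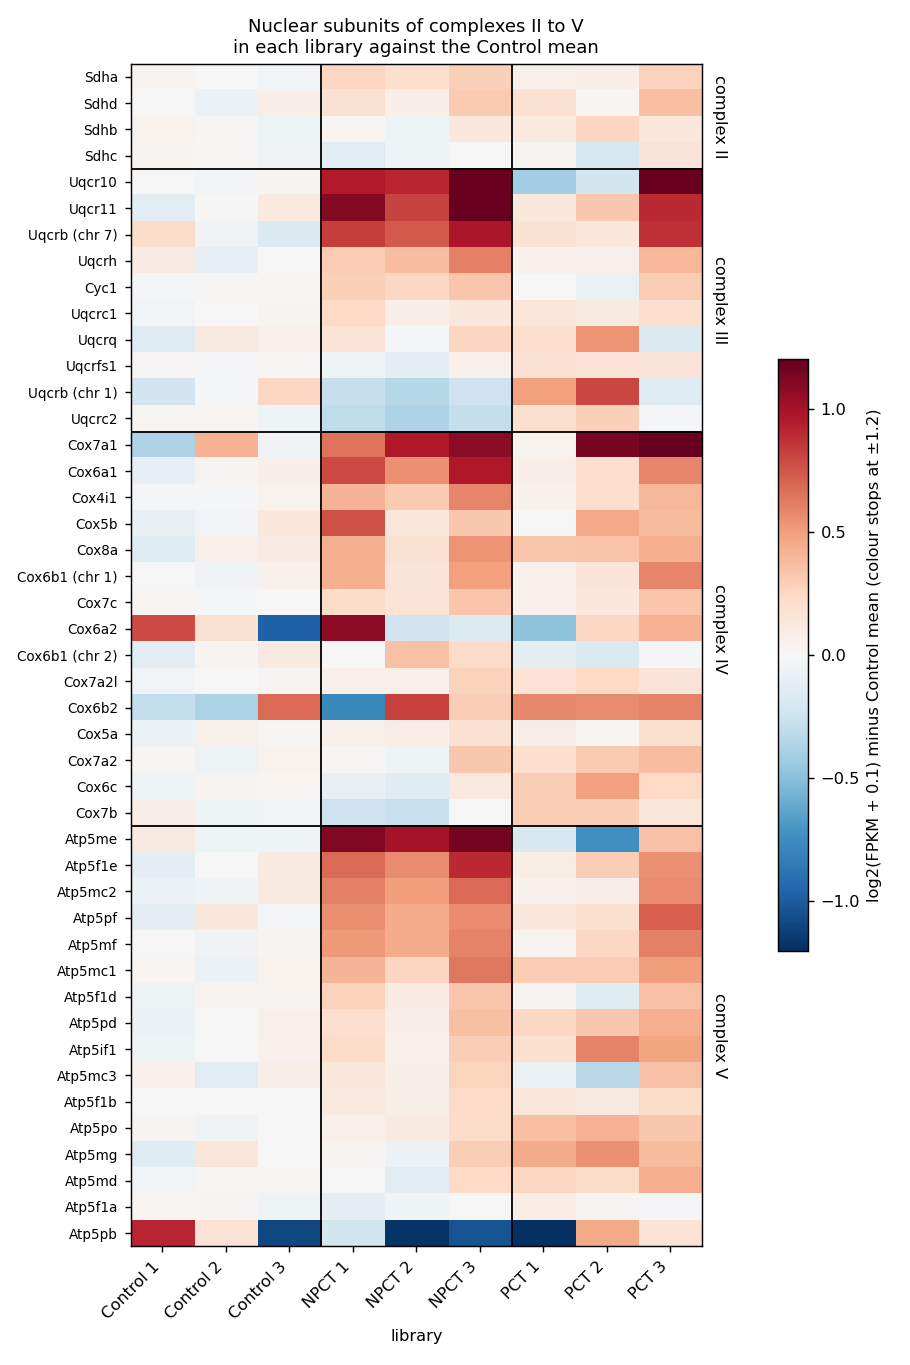
Heat map of the 45 tested members (rows, grouped by complex and ordered by the NPCT difference) in the 9 libraries (columns), with colour for log2(FPKM + 0.1) minus the Control mean. The small complex III subunits Uqcr10, Uqcr11 and Uqcrb (chr 7) and the complex V subunit Atp5me are among the darkest in the 3 NPCT libraries, and PCT 3 looks unlike PCT 1 and PCT 2.

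After PCT, 40 of the 45 members had a higher fitted mean than Control and 5 a lower one, with a median of 0.23 against 0.0046 over all genes. Atp5po and Atp5mg, both of complex V, rose and were the 2 members called, against 4.20% of all genes, and limma-voom called 6 members and 4.93% of all genes. At an unadjusted p under 0.05 by limma, 19 members were higher (background 10.1%) and 0 lower (background 8.79%). The PCT libraries lay above all Control libraries in 23 members (background 13.1%) and below them in 0 (background 11.9%). The adjusted p was under 0.1 in 7 members, all higher, and in 7.94% of all genes. Without the third PCT library the median was 0.16 and 4 members were called, namely Atp5po, Cox6c, Uqcrc2 and the chromosome 1 locus of Uqcrb, with 4.14% of all genes called. Both comparisons share the Control libraries, so their values are set side by side and their likeness is not counted as a result. No member reached an adjusted p of at most 0.05 together with a fold change above 1.5 against Control in either treatment with every library in the fit. Without the third PCT library 7 did in NPCT and 1 in PCT, and with limma-voom 6 did in NPCT and 0 in PCT.

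**Figure D2:**
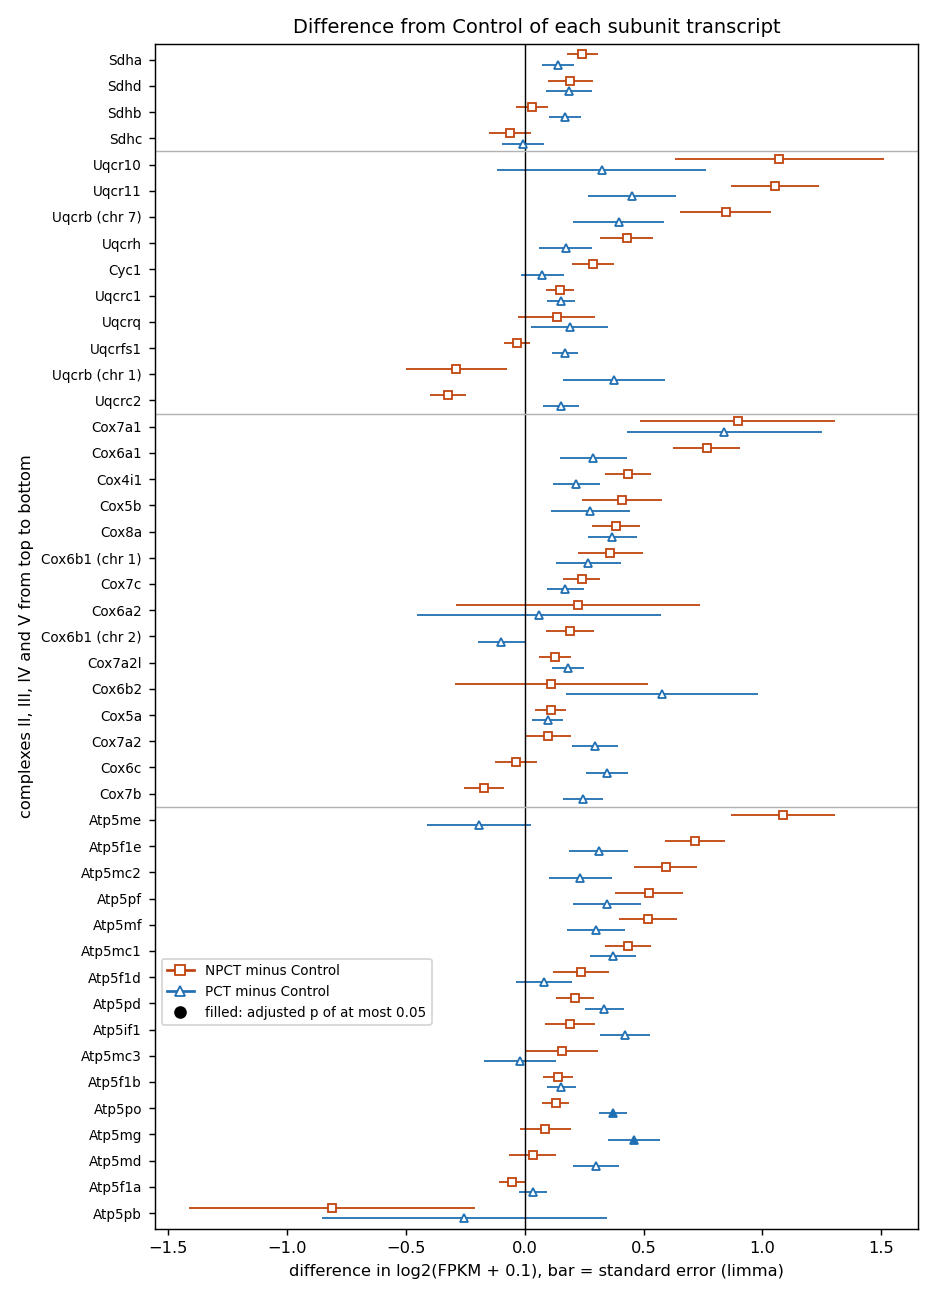
Difference from Control in log2(FPKM + 0.1) for each tested member, with squares for NPCT, triangles for PCT and bars for the standard error of limma. Filled symbols mark an adjusted p of at most 0.05, reached by Atp5po and Atp5mg in PCT, and most symbols stand to the right of 0.

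Complex II oxidises succinate, and its 4 transcripts had a median difference of 0.11 in NPCT (0.057 without NPCT 3) and 0.15 in PCT (0.085 without PCT 3). The flavoprotein Sdha, which binds succinate, had 62.2, 60.9 and 59.4 FPKM in Control, 72.4, 69.5 and 74.4 in NPCT and 63.6, 64.3 and 73.8 in PCT. NPCT libraries were all above Control, by 0.24 ± 0.07 in log2 (SE, adjusted p = 0.0653), whereas only the third PCT library reached the NPCT range, and PCT differed by 0.14 ± 0.07 (adjusted p = 0.303). The iron-sulphur subunit Sdhb had 95.3, 93.8 and 89.1 FPKM in Control, 94.3, 89.0 and 101 in NPCT and 101, 111 and 101 in PCT, so that PCT lay above Control and NPCT overlapped it. Of the membrane anchors, Sdhd had 69.3, 65.6 and 72.3 FPKM in Control, 78.4, 73.0 and 85.8 in NPCT and 78.4, 69.6 and 88.7 in PCT, a difference of 0.19 in each treatment. Sdhc had 117, 124 and 128 FPKM in NPCT and 132, 111 and 143 in PCT, and both groups overlapped Control.

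Complex III gave medians of 0.22 in NPCT and 0.18 in PCT (0.17 without PCT 3), and its subunits differed in direction after NPCT. The small subunits Uqcr11 and Uqcr10 and the chromosome 7 locus of Uqcrb had the largest positive differences, while the core subunit Uqcrc2 was lower. Uqcr11 (chr7:12171185-12175835 on Rnor_6.0) had 106, 118 and 126 FPKM in Control, 249, 204 and 275 in NPCT and 128, 146 and 216 in PCT. Every NPCT and every PCT library was above Control, by 1.05 ± 0.19 in NPCT (SE, 2.07-fold, adjusted p = 0.0509) and 0.45 ± 0.19 in PCT (1.37-fold, adjusted p = 0.226). The PCT difference of Uqcr11 was 0.23 without PCT 3. Uqcr10 (chr14:84935486-84937725) had 18.6, 18.2 and 19.0 FPKM in Control, 36.1, 35.2 and 47.4 in NPCT and 14.0, 16.0 and 56.6 in PCT. PCT 1 and PCT 2 were below Control and PCT 3 was above every other library. Its NPCT difference of 1.07 had a standard error of 0.44 and an adjusted p of 0.145, and it turned to -0.0089 with the length slope of each library as a covariate. Without PCT 3 the same difference had an adjusted p of 0.00296, and NPCT then exceeded PCT by 1.39 (adjusted p = 0.000599).

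Uqcrc2 (chr1:190555177-190585734), a core subunit that has no electron carrier, had 109, 109 and 104 FPKM in Control, 86.5, 82.8 and 87.6 in NPCT and 122, 131 and 106 in PCT. NPCT libraries were below all others, and the level in NPCT was 0.48 ± 0.08 lower than PCT (SE, adjusted p = 0.00690), while the NPCT difference from Control of -0.32 ± 0.08 had an adjusted p of 0.0541. The ratio of Uqcr11 to Uqcrc2 FPKM was 0.969, 1.08 and 1.22 in Control, 2.88, 2.47 and 3.14 in NPCT and 1.05, 1.11 and 2.04 in PCT. The pair was chosen after its values were seen, and since both subunits lay apart from Control in opposite directions after NPCT, their ratios had to separate. PCT 3 fell between those groups. The other core subunit, Uqcrc1, had 95.4, 97.1 and 100 FPKM in Control, 115, 103 and 107 in NPCT and 108, 105 and 112 in PCT, with the same difference of 0.15 in each treatment. Cyc1, which hands electrons to cytochrome c, had 103, 105 and 105 FPKM in Control, 127, 124 and 132 in NPCT and 104, 99.2 and 129 in PCT. Its NPCT libraries lay above Control, and of the PCT libraries the third alone did. Uqcrfs1, the Rieske protein, had 107, 104 and 107 FPKM in Control, 102, 98.5 and 111 in NPCT and 120, 119 and 117 in PCT, and was 0.20 lower in NPCT than in PCT (adjusted p = 0.0405). The hinge subunit Uqcrh and the small subunit Uqcrq gave 0.43 and 0.13 in NPCT and 0.17 and 0.19 in PCT. The PCT values were 0.059 and 0.37 without PCT 3.

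**Figure D3:**
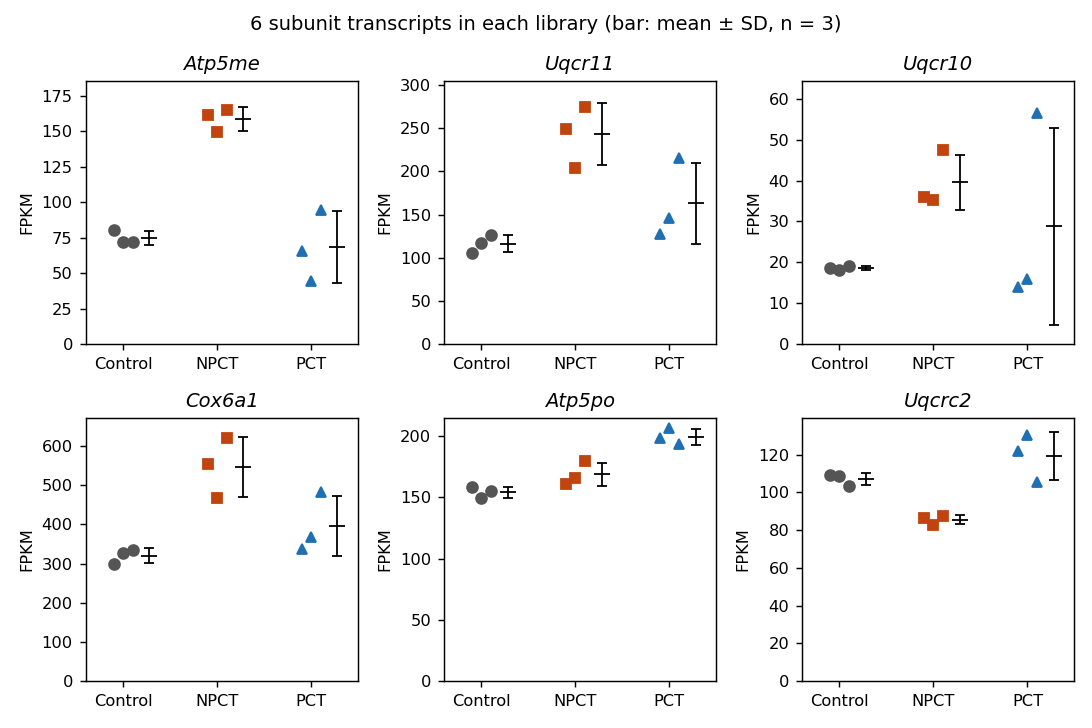
FPKM of 6 subunit transcripts in each library, with a bar for mean and SD (n = 3) beside each group and axes that start at 0. Atp5me, Uqcr11, Uqcr10 and Cox6a1 are higher in all 3 NPCT libraries than in Control, Atp5po is highest in PCT, and Uqcrc2 is lowest in NPCT.

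The 2 loci named Uqcrb had differences of opposite sign after NPCT, 0.85 (adjusted p = 0.0530) for chromosome 7 and -0.29 (adjusted p = 0.399) for chromosome 1. The locus on chromosome 7 (chr7:71264514-71269869, with a gene length of 1029 bases over a span of 5356) had 13.4, 11.2 and 10.2 FPKM in Control, 20.6, 19.2 and 22.8 in NPCT and 13.1, 12.6 and 21.2 in PCT. The locus on chromosome 1 (chr1:94718402-94718876) is as long as its span of 475 bases, so that it holds no intron in this annotation, and had 71.1, 82.4 and 99.3 FPKM in Control, 68.8, 66.0 and 70.5 in NPCT and 117, 145 and 74.9 in PCT. The chromosome 7 locus held 15.9%, 11.99% and 9.32% of their summed FPKM in Control, 23.1%, 22.6% and 24.4% in NPCT, and 10.1%, 8.01% and 22.1% in PCT. The ranges of the loci themselves fix that every NPCT share is above every Control share, and PCT 3 was near NPCT. How reads that fit both loci were assigned was not examined, so the split between them is uncertain, and the same holds for Cox6b1. There, the chromosome 1 locus had 158, 153 and 164 FPKM in Control, 213, 177 and 223 in NPCT and 164, 177 and 238 in PCT, and the intronless chromosome 2 locus 59.2, 66.6 and 70.4, then 64.9, 83.3 and 76.4, then 60.4, 57.9 and 64.6.

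Complex IV gave medians of 0.22 in NPCT and 0.27 in PCT. Cox6a1 (chr12:47024442-47027495), a small nuclear subunit, had 299, 327 and 335 FPKM in Control, 553, 469 and 621 in NPCT and 338, 367 and 482 in PCT. It was 0.77 ± 0.14 higher in NPCT (SE, 1.70-fold, adjusted p = 0.0509) and 0.29 ± 0.14 higher in PCT (adjusted p = 0.315). Cox4i1, the subunit 4 isoform common to most tissues, had 315, 313 and 329 FPKM in Control, 423, 396 and 478 in NPCT and 331, 367 and 420 in PCT. All 6 treated libraries were above Control, with differences of 0.43 (adjusted p = 0.0530) and 0.22 (adjusted p = 0.274). Cox8a had 455, 385 and 493 FPKM in NPCT and 428, 428 and 457 in PCT, with differences of 0.38 and 0.37. In the subunit 5 pair, Cox5b had 110, 114 and 127 FPKM in Control, 198, 129 and 147 in NPCT and 116, 160 and 152 in PCT, with a wide NPCT range, and Cox5a had 171, 187 and 182, then 188, 191 and 205, then 189, 184 and 206. Cox5a has a processed pseudogene, LOC100361008, at 30.8 to 55.1 FPKM, whose reads could be shared with it.

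Cox6c and Cox7b, small subunits of complex IV, had their highest levels in PCT. Cox6c had 278, 294 and 291 FPKM in Control, 271, 260 and 312 in NPCT and 354, 406 and 340 in PCT, and NPCT was 0.38 lower than PCT (adjusted p = 0.0231). Cox7b had 155, 142 and 144 FPKM in Control, 124, 122 and 148 in NPCT and 180, 180 and 163 in PCT, and NPCT was 0.42 lower than PCT (adjusted p = 0.0156). For both subunits the PCT libraries were above all libraries of the other groups. Cox7a2 had 126, 120 and 129 FPKM in Control, 126, 121 and 157 in NPCT and 144, 156 and 161 in PCT. The expressed subunits Cox7c, Cox7a2 and the supercomplex factor Cox7a2l gave NPCT differences of 0.24, 0.10 and 0.13 and PCT differences of 0.17, 0.30 and 0.18. Cox7a1, with 0.349, 0.674 and 0.463 FPKM in Control, 0.814, 1.03 and 1.13 in NPCT and 0.497, 1.18 and 1.37 in PCT, had the largest difference of the complex (0.90 and 0.84) at 8 to 36 fragments per library, and neither was called (adjusted p = 0.183 and 0.314).

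Complex V gave medians of 0.20 in NPCT and 0.30 in PCT, and without the third PCT library the PCT median was 0.154. In the head of the enzyme, the catalytic beta subunit Atp5f1b had 564, 543 and 609 FPKM in NPCT and 569, 561 and 604 in PCT, and both groups were above its Control libraries, by 0.14 and 0.15. Atp5f1a, the alpha subunit, had 366, 383 and 398 FPKM in NPCT and 421, 405 and 392 in PCT, overlapping Control in both. The small head subunit Atp5f1e (epsilon) had 175, 190 and 204 FPKM in Control, 303, 281 and 353 in NPCT and 201, 233 and 277 in PCT, with differences of 0.72 ± 0.13 (SE, 1.64-fold, adjusted p = 0.0509) and 0.31 ± 0.13 (adjusted p = 0.219). Atp5f1d (delta) gave 0.24 and 0.08.

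In the membrane part of complex V, Atp5me and Atp5mg, subunits e and g that lie side by side where ATP synthase forms dimers, were both called between the peptides, in opposite directions. In that comparison 7 of the 45 members tested and 16.3% of all genes were called. Atp5me (chr14:2325308-2326436) had 80.5, 71.7 and 71.7 FPKM in Control, 161, 149 and 165 in NPCT and 65.3, 44.8 and 94.8 in PCT. NPCT exceeded every other library, by 1.09 ± 0.22 over Control (SE, 2.12-fold, adjusted p = 0.0509) and by 1.28 ± 0.22 over PCT (2.43-fold, adjusted p = 0.00826). Atp5mg (chr8:49220443-49227273) had 235, 288 and 263 FPKM in Control, 267, 248 and 321 in NPCT and 356, 382 and 340 in PCT. It rose in PCT by 0.46 ± 0.11 (1.38-fold, adjusted p = 0.0498) and was 0.37 lower in NPCT than in PCT (adjusted p = 0.0464). Leaving out any of 8 libraries but NPCT 3 took Atp5mg past the limit in PCT against Control (adjusted p from 0.0549 to 0.187), whereas Atp5me stayed called between the peptides with each of the 9 libraries left out (0.000587 to 0.0330). With a library left out, the Atp5mg call between the peptides held only without PCT 3 or NPCT 3 (adjusted p up to 0.139 by limma). The ratio of Atp5me to Atp5mg was 0.342, 0.249 and 0.273 in Control, 0.603, 0.602 and 0.514 in NPCT and 0.183, 0.117 and 0.279 in PCT, a pair also chosen after its values were seen. The ranges of both subunits fix that every NPCT ratio is above every Control and PCT ratio. The neighbouring subunits Atp5mf (f) and Atp5md gave 0.52 and 0.03 in NPCT and 0.30 in PCT for each (0.15 and 0.23 without PCT 3).

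In the stalk of complex V, Atp5po rose in PCT. It encodes OSCP, the subunit that joins the head to the peripheral stalk, and lies at chr11:32081574-32088002. It had 158, 149 and 155 FPKM in Control, 161, 166 and 180 in NPCT and 198, 207 and 194 in PCT, so that the 3 groups did not overlap. PCT was 0.37 ± 0.06 above Control (SE, 1.29-fold, adjusted p = 0.0108) and NPCT was 0.24 lower than PCT (adjusted p = 0.0272). The NPCT difference from Control of 0.13 had an adjusted p of 0.175. The PCT call was lost without Control 2 (adjusted p = 0.0577) or Control 3 (0.0516) and held at 0.0129 without PCT 3. Among the other stalk subunits, Atp5pf and Atp5pd gave 0.52 and 0.21 in NPCT and 0.35 and 0.34 in PCT. The PCT values were 0.16 and 0.29 without PCT 3. Atp5pb, the stalk b subunit, had 3.92, 2.31 and 0.904 FPKM in Control, 1.73, 0.844 and 0.942 in NPCT and 0.719, 2.83 and 2.29 in PCT, from 22 to 124 fragments per library, and the gene LOC100911417, of the same length of 2063 bases, had 0.416 to 9.57 FPKM with both high and low libraries in every group, so Atp5pb is uncertain. Its differences were -0.81 (SE 0.60) and -0.25. Atp5if1, the inhibitor that blocks ATP hydrolysis by the enzyme, had 125, 130 and 134 FPKM in Control, 151, 135 and 159 in NPCT and 148, 196 and 180 in PCT, with differences of 0.19 (adjusted p = 0.256) and 0.42 (adjusted p = 0.0605).

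Atp5mc1, Atp5mc2 and Atp5mc3 encode the same mature c subunit, which forms the rotating ring. Their summed FPKM was 525, 496 and 554 in Control, 682, 637 and 747 in NPCT and 545, 516 and 726 in PCT, so that all NPCT libraries were above Control and PCT 1 and PCT 2 were within its range. Atp5mc2 had 184, 188 and 209 FPKM in Control, 293, 273 and 309 in NPCT and 200, 204 and 287 in PCT, a difference of 0.59 ± 0.13 for NPCT (SE, 1.51-fold, adjusted p = 0.0525). Atp5mc1 had 114, 107 and 115, then 148, 134 and 174, then 138, 138 and 158 FPKM, with differences of 0.43 and 0.37. Atp5mc3 had 228, 201 and 230, then 240, 231 and 265, then 207, 174 and 281 FPKM, with differences of 0.16 and -0.02. The largest share of c subunit FPKM came from Atp5mc3 in Control (43.4%, 40.6% and 41.6%) and from Atp5mc2 in NPCT (43.0%, 42.9% and 41.3%), and in PCT Atp5mc2 led in 2 of 3 libraries (36.7%, 39.5% and 39.6%).

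**Figure D4:**
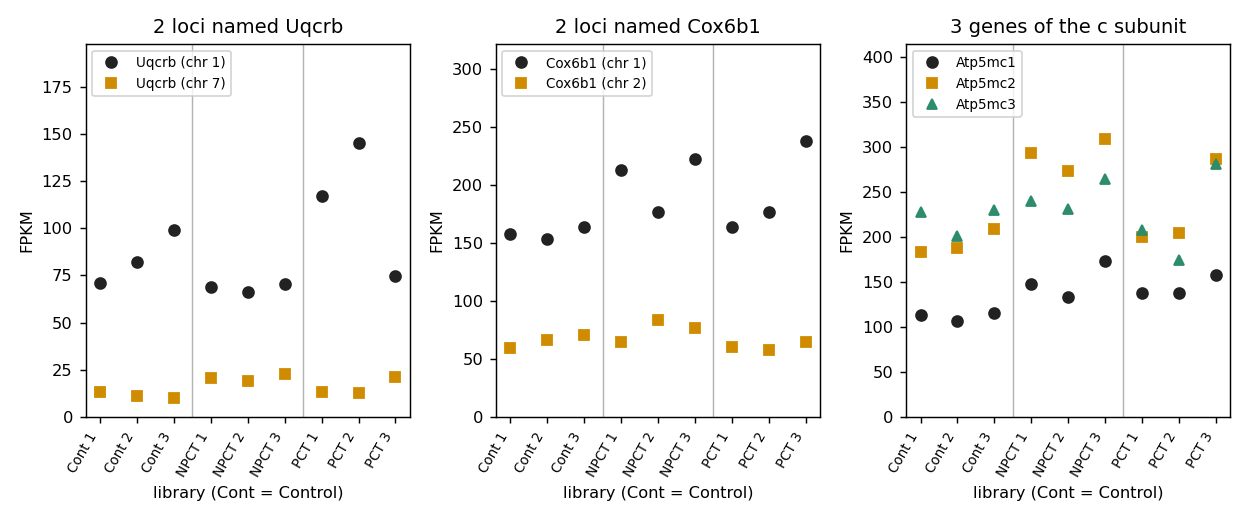
FPKM in each library of the 2 loci named Uqcrb, the 2 loci named Cox6b1 and the 3 genes of the c subunit, with axes that start at 0. Uqcrb on chromosome 7 is higher and Uqcrb on chromosome 1 lower in NPCT than in Control, and Atp5mc2 passes Atp5mc3 in all 3 NPCT libraries.

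Compared directly, NPCT and PCT gave 25 members higher in NPCT and 20 lower, with a median of 0.01 and 7 members called (background 16.3%). The split turned with length, to 17 higher and 28 lower (median -0.090) with the length trend removed and to 15 higher and 30 lower (median -0.045) with the length slope as a covariate. Atp5me was the called member higher in NPCT, and Uqcrc2, Cox7b, Cox6c, Atp5mg, Atp5po and Uqcrfs1 were the 6 lower ones, and limma-voom called 10 members and 18.0% of all genes. At an unadjusted p under 0.05 by limma, 9 members were higher (background 15.6%) and 8 lower (background 17.5%). The groups lay apart with NPCT above in 3 members (background 15.4%) and below in 7 (background 18.0%). The adjusted p was under 0.1 in 14 members and 25.4% of all genes. Without the third PCT library 22 members were called, 15 higher and 7 lower in NPCT, where 29.1% of all genes were called. All 7 members called with every library were also called without it, and the called members went from mostly lower to mostly higher in NPCT. Of the 7, Atp5me and Uqcrc2 stayed called with each of the 9 libraries left out in turn. Leaving out PCT 1, PCT 2 or NPCT 1 took Cox7b, Cox6c, Atp5po, Atp5mg and Uqcrfs1 past the limit, NPCT 2 took all of these but Cox7b, and any Control library took Atp5mg and Uqcrfs1, with adjusted p up to 0.139.

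The nuclear subunits of complex I, which feeds electrons from NADH into the chain, were set beside them. Of 37 tested, 30 were higher in NPCT (median 0.24) and 34 in PCT (median 0.21). Ndufb8, an accessory subunit, rose in both, by 0.47 (adjusted p = 0.0493) and 0.49, and Ndufa4 rose in PCT by 0.28. The NPCT call of Ndufb8 was lost without any 1 of the Control libraries, the NPCT libraries or PCT 2 (adjusted p up to 0.169), with no filter, with library totals and with both handlings of length, and its PCT call without Control 1 or Control 3 (adjusted p up to 0.0628). The PCT call of Ndufa4 held only without PCT 3 or NPCT 3 (adjusted p up to 0.167 without the other libraries), and was lost with no filter, quantile normalization, the fit of 2 groups, the replicate block and the length trend removed (0.0803 to 0.131). Ndufa4, named for complex I but now counted with complex IV, was 0.46 lower in NPCT than in PCT (adjusted p = 0.00414, and at most 0.0203 with any library left out). The 6 mitochondrially encoded subunits of complexes III to V had the opposite sign after NPCT. All 6 were lower, with a median of -0.44, and 5 had libraries all below Control (background 20.3%), with 0 called (limma, lowest adjusted p = 0.0761, and 5 at an unadjusted p under 0.05, where the background of lower genes is 14.9%). CYTB of complex III stood at 6630 ± 305 FPKM in Control and 4598 ± 181 in NPCT, and COX2 (subunit 2 of complex IV) at 7136 ± 735 and 4646 ± 377 (SD, n = 3). In PCT, 5 of 6 were lower, with a median of -0.07. The median level of these subunits (log2 departure from the mean over all libraries) was 0.098 to 0.297 in Control. It was 0.367 in PCT 1, 0.131 in PCT 2 and -0.225 in PCT 3. Only PCT 3 lay below Control, so the lower PCT values lean on that library. Genes of the mitochondrial genome took 5.18% to 5.84% of fragments in Control, 3.70% to 4.17% in NPCT, and 6.21%, 5.46% and 4.11% in the 3 PCT libraries.

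**Figure D5:**
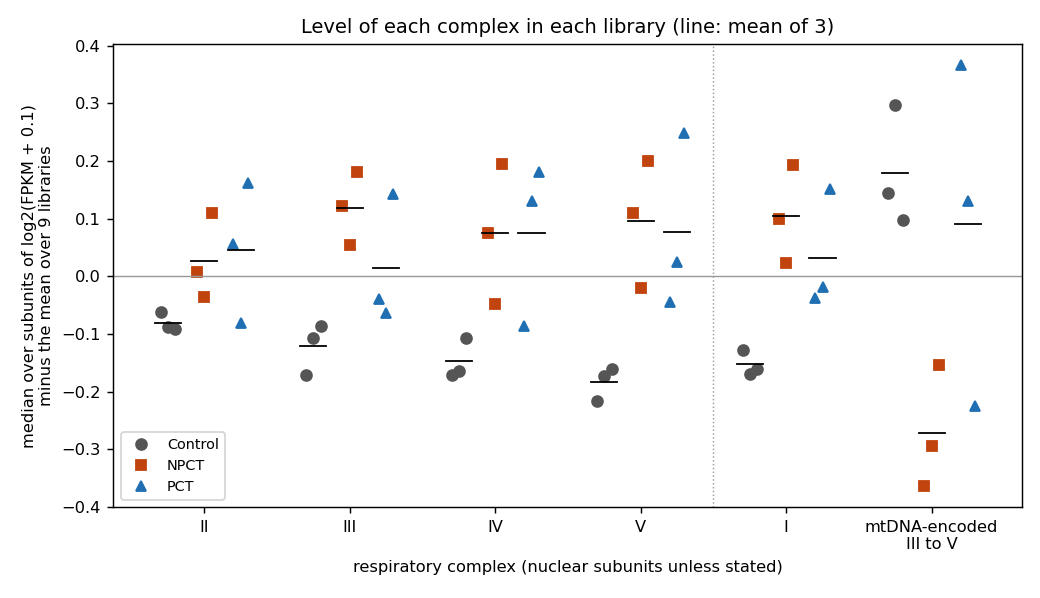
Median over subunits of log2(FPKM + 0.1) minus the mean over 9 libraries, by complex (horizontal axis) for Control (circles), NPCT (squares) and PCT (triangles), with a line for the mean of 3 libraries. Control libraries lie below all treated libraries for the nuclear subunits of complexes III, IV, V and I and overlap PCT in complex II, and NPCT libraries are below all Control libraries for the mitochondrially encoded subunits.

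Partners of these complexes were described from lists of assembly factors, regulators and cytochrome c. Cytochrome c, Cycs, rose in PCT by 0.38 (adjusted p = 0.0291) and stood at 0.01 in NPCT. The PCT call was lost without any 1 of the Control libraries, PCT 1, NPCT 1 or NPCT 2 (adjusted p up to 0.111). Of 36 assembly factors tested, 2 rose in NPCT, namely Uqcc2 of complex III, from 16.8 ± 1.1 to 38.2 ± 5.2 FPKM, and Fmc1 of complex V, from 3.45 ± 0.33 to 7.35 ± 1.16 (SD, n = 3, adjusted p = 0.0493 for each), against 0.470% of all genes called. Both calls were lost when any Control library, any NPCT library or PCT 2 was left out (adjusted p up to 0.169), with no filter, with scaling by library totals and with the length covariate, and that of Fmc1 also with a pseudocount of 0.01. In PCT, Bcs1l of complex III alone was called, against 4.20% of all genes called. It went from 8.16 ± 1.08 to 11.3 ± 0.8 (adjusted p = 0.0451, and 0.0540 to 0.115 with any of the 9 libraries left out). The median over these factors was 0.15 in NPCT and 0.09 in PCT. Between the peptides 8 of the 36 were called, 4 higher and 4 lower in NPCT (16.3% of all genes called). The lower ones were Cox20 (-0.50, adjusted p = 0.00391), Bcs1l (-0.44, 0.0282), Sco1 (-0.33, 0.0471) and Lrpprc (-0.32, 0.0420). Tmem177 was 0.53 and Pet100 0.23 higher (adjusted p = 0.0303 and 0.0478), and Uqcc2 0.69 and Fmc1 0.70 higher (adjusted p = 0.0349 and 0.0317). Among these calls, only those of Uqcc2 and Fmc1 are given with a library left out. Both of these calls were lost without Control 1, PCT 1, PCT 2, NPCT 1 or NPCT 3, and that of Uqcc2 also without Control 2 or Control 3 (up to 0.117 for Uqcc2 and 0.0996 for Fmc1). Cycs was 0.37 lower in NPCT than in PCT (adjusted p = 0.0165), a call lost without PCT 1, NPCT 1 or NPCT 2 (up to 0.0567). Of 10 regulators of respiratory gene transcription, which include Nrf1, Gabpa, Gabpb1, Ppargc1a and Esrra, 0 were called against Control by limma, with 2 higher (14.4% of all genes) and 2 lower (14.9%) at an unadjusted p under 0.05 in NPCT, and 1 higher in PCT (10.1%). Of the 10 regulators, 7 had a lower mean in NPCT than in Control and 3 a higher one. The NPCT libraries were all below Control in 5 (20.3% of all genes) and all above in 2 (20.0%). Gabpb1, a subunit of the ETS factor GABP, was 0.39 lower in NPCT than in PCT (adjusted p = 0.0227), a call lost without PCT 1, PCT 2, NPCT 2 or NPCT 3 (adjusted p up to 0.0778).

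The members are short genes, with a median length of 601 bases against 2136 over all genes tested, and the libraries differed in how values moved with length. The slope of a library's log2 departure per doubling of length was -0.00078 to 0.028 in Control, -0.026 to -0.019 in NPCT, and 0.022, 0.027 and -0.028 in the 3 PCT libraries. With the trend on length removed from every library, the NPCT median of the members was 0.077 in place of 0.19, and the median of complex II was -0.02. Of the 21 members at an unadjusted p under 0.05 after NPCT, all 21 kept their direction with the trend removed and 20 had a smaller difference. Uqcr11 went from 1.05 to 0.91 (adjusted p = 0.0487) and Atp5f1e from 0.72 to 0.62 (adjusted p = 0.0488), and these 2 were then called, while Cox7c went from 0.24 to 0.10 and Atp5pd from 0.21 to 0.059. Between the peptides, all 7 called members were also called with the trend removed. The other handling of length, with each library's slope as a covariate, gave 0 called members and 0 called genes for NPCT against Control by limma, with Uqcr11 at 0.67 and Atp5f1e at 0.51 (adjusted p = 0.534 for each). Between the peptides it left Uqcrc2 and Atp5me called and took the other 5 past the limit (adjusted p from 0.0976 to 0.258).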

How the data were processed

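RNA-seq of 9 libraries was used. According to the study's methods and the submitters' processing notes, the authors aligned reads with HISAT2 2.0.5 to Rnor_6.0, counted them with featureCounts 1.5.0-p3 and deposited a table of FPKM values, unlogged, with gene positions and lengths. Multiplying each FPKM by gene length gave whole multiples of 1 step per library (within 0.1 of a whole number) for 100% of values above 0, so fragments per gene were recovered.

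Size factors (median ratios) were computed and found equal for all libraries. The deposited values were thus already scaled to equal median ratios and not by library totals, and scaling by these factors changed nothing. Genes with a mean of at least 0.5 FPKM (15958) were fitted as log2(FPKM + 0.1) with limma 3.58.1 in R 4.3.3, with a variance trend, 1 mean per group and all 9 libraries. The Benjamini-Hochberg adjustment ran over all genes of a comparison, and fold changes on this scale understate those of low genes. The design, with 3 libraries against 3, allows no exact two-sided permutation p below 0.1. On simulated NPCT and Control libraries (15993 genes tested) the fit recovered 77 of 100 genes changed 2-fold and 19 of 100 changed 1.5-fold, and limma-voom 85 and 61, each with 5 false calls. The simulation gave all genes the same dispersion and held no length slope, no outlying library and no other changed genes. Its rates therefore do not carry over to the real libraries.

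The methods state that RNA was taken from pools of biological triplicates, while the labels number 3 replicates, so p-values measure the spread between these samples, which may be technical. Same-numbered libraries were checked for pairing (correlations of -0.07 to 0.03) and not paired. The members and lists were chosen with earlier results of these data known. Every member is accounted for, and per-library values are given for members called in any comparison, the highest transcript and largest differences of each complex, catalytic subunits, paralogue pairs and c subunit genes, and for some others. Symbols of 40 members matched the RefSeq promoter table (GRCr8), and the table's positions are on Rnor_6.0. Alternatives covered the pseudocount, the filter, the scaling, the groups fitted, a replicate block, gene length, limma-voom and each library left out. The alternatives on library totals and on a slope on length, and the values without PCT 3 beside some results, were chosen after seeing the data. One result among the complex I genes is not reported here.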

Additional observations from a re-analysis of the deposited data

How the results depend on the processing

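The number of members that passed the test depended on the setting, and the share of all genes called, given in brackets, moved as well. For NPCT against Control, where no member was called (21 at an unadjusted p under 0.05 by limma), 2 were called with a pseudocount of 1 (0.633%), 10 with a mean of at least 1 FPKM (5.05%), 8 with quantile normalization (3.77%), 18 with a fit of only the 2 groups (18.8%), 2 with the length trend removed (0.833%) and 13 with limma-voom on recovered fragments (9.49%); leaving out 1 library gave 0 to 18, with 8 without PCT 1 (4.46%) and 18 without PCT 3 (19.2%). Members called with a fold above 1.5 were 6 with a mean of at least 1 FPKM, 5 with quantile normalization, 7 with the 2 groups and 6 with the block. For PCT against Control, with 2 called, 1 was called with a pseudocount of 1 (3.87%), with 0.01 (4.12%), with no filter (2.06%) and with the fit of 2 groups (2.66%), 4 with the length trend removed (5.49%), 6 with limma-voom (4.93%), and 0 to 6 with a library left out: 0 without Control 2 (1.68%) or Control 3 (1.38%), 1 without Control 1, PCT 2, NPCT 1 or NPCT 2 (1.3% to 2.84%), 4 without PCT 3 (4.14%) and 6 without NPCT 3 (4.5%). For NPCT against PCT, with 7 called, 11 were called with quantile normalization (15.3%), 2 with the fit of 2 groups (4.78%), 12 with the length trend removed (20.1%), 2 with the slope on length as a covariate (4.07%), and 2 to 22 with a library left out: 3 without PCT 1 (6.49%), 2 without PCT 2 (6.46%), 22 without PCT 3 (29.1%), 3 without NPCT 1 (6.27%) and 4 without NPCT 2 (8.78%).

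The replicate number as a block gave 11 called members for NPCT against Control (7.74% of all genes), and with the length trend removed as well 6 there (3.30%) and 13 for NPCT against PCT (18.3%); the numbers do not pair the libraries. With the block and the length trend removed the median of the members after NPCT was 0.077.

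The NPCT medians moved with length: over all members 0.077 with the trend removed and 0.11 with the covariate, in complex II -0.017 and, with quantile normalization, 0.049, in complex III 0.12 and 0.10, in complex IV 0.10 and 0.11, and in complex V 0.067. After PCT the median of the members was 0.16 to 0.32 with a library left out, lowest without PCT 3 and highest without PCT 1, and that of complex V was 0.154 to 0.35. The cause of these shifts was not tested. Of the 21 members at an unadjusted p under 0.05 in NPCT, 1 of 462 values changed direction, Uqcr10 at -0.0089 with the covariate, and of those in the other comparisons 0 of 418 and 0 of 374. Many of these values could not change, because the filter, the block, the fit of 2 groups and leaving out the uncompared group keep the difference. The members were also picked by p in these same data, so the counts do not measure how stable a direction is. Scaling by library totals gave a median over all genes of 0.044 for NPCT against Control in place of 0.0062, and its shift was smaller in the other comparisons. Cox7a1, Cox6a2, Cox6b2 and Atp5pb rest on 4 to 124 fragments per library, and the other tested members on 85 or more.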
